A study of Mus musculus with 10 samples.

Results

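The mouse mitochondrial genome was followed through 37 genes in the jejunum of 10 mice. The genes were taken from the deposited expression table by their symbols, as every row whose symbol begins with mt-, and they make up 37 of the table's 45707 rows. They comprise 13 mRNAs, 2 rRNAs and 22 tRNAs, and all 37 lie on chromosome M in the GENCODE annotation of the GRCm38 build.

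The tissue was that of 5 Vil-Cre controls and of 5 Vil-Cre:NDI1 littermates, with 1 RNA-sequencing library per mouse. Both genotypes carry the villin-Cre transgene, since homozygous Vil-Cre mice were crossed with mice heterozygous for NDI1, which sits behind a lox-stop-lox cassette at ROSA26. NDI1, a yeast NADH dehydrogenase made of 1 protein, passes electrons from NADH to ubiquinone without pumping protons. All mice were males of 8 to 12 weeks that had fasted overnight (16 to 18 h) and received water by gavage, and jejunum was collected 1 h later. Villin-Cre acts in the intestinal epithelium, whereas each library was made from whole jejunum, so transcripts of muscle, immune and other cells without NDI1 were measured together with those of the epithelium.

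Mitochondrial DNA is a circle that is transcribed from both strands into long precursors, from which most mRNAs and rRNAs are released by excision of the tRNAs that lie between them. Its mRNAs encode core subunits of complexes I, III and IV of the electron transport chain and of the ATP synthase (complex V), while every other subunit is encoded in the nucleus. Complex I is the animal NADH dehydrogenase beside which NDI1 offers another route, and the comparison asks how transcripts of the mitochondrial genome stood in mice with NDI1 and without it in the absence of a drug.

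The annotated genes of this compact genome touch or overlap, so that some bases, and any read confined to them, belong to a pair of genes. The 3 windows below, read from the plus strand of GRCm38 in the GENCODE transcripts, show 3 of the 4 places where neighbouring mRNAs share bases, and capitals mark the shared bases. The fourth, not shown, is the single base 8607 that ends mt-Atp6 and opens mt-Co3. In the first 2 windows the shared stretch opens with the ATG of the downstream gene and closes with the TAA of the upstream gene. In the third, mt-Nd5 and mt-Nd6 end over each other from opposite strands.
mt-Atp8/mt-Atp6 (chrM:7917-7979, 43 shared bases): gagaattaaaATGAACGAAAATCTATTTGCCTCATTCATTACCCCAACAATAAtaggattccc
mt-Nd4l/mt-Nd4 (chrM:10157-10183, 7 shared bases): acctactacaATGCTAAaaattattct
mt-Nd5/mt-Nd6 (chrM:13542-13575, 14 shared bases): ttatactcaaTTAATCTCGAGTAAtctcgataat

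The values are whole numbers of reads, as assigned to genes by Salmon, divided by 1 size factor per library and are called normalized counts. Reads on genes ran from 10145705 to 12371530 per library, and size factors differed by up to 1.29-fold. The NDI1 transcript matched the labels, with 0 or 1 read in Vil-Cre libraries and 1002 to 2659 in Vil-Cre:NDI1 libraries. Enterocyte markers (11 of 11 detected) summed to 418044 to 690130 normalized counts in Vil-Cre mice and 612556 to 807485 in Vil-Cre:NDI1 mice, which places intestinal epithelium in every library. All 11 lay higher in Vil-Cre:NDI1 mice, by a median log2 fold change of 0.22, with 0 past the threshold in limma and DESeq2. Hepatocyte markers summed to 70.8 to 1685 and to 52.0 to 278, and 3 ileum markers to 11.0 to 2101 and to 7.84 to 1315, so libraries carried varying amounts of transcripts known from other organs or gut segments. Of 6 hepatocyte markers tested, 6 lay lower in Vil-Cre:NDI1 mice, by a median log2 fold change of -1.61, with 0 past the threshold in limma and 1 in DESeq2. Smooth muscle, B and plasma cell and adipocyte markers overlapped between the genotypes and gave 0 calls in limma and DESeq2. The part of these cells in the results was not tested.

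Transcripts of the mitochondrial genome supplied 4.69% to 6.64% of all counts on genes. In Vil-Cre mice 1 to 5 the share was 5.16%, 4.73%, 6.64%, 5.47% and 4.98%, and in Vil-Cre:NDI1 mice 1 to 5 it was 5.55%, 5.68%, 6.19%, 4.69% and 5.59%. The means of the genotypes were 5.40% ± 0.746 and 5.54% ± 0.540 (SD, n = 5 each). The highest and lowest mouse differed by 1.42-fold, the ranges of the genotypes overlapped, and the means differed by less than the spread within either genotype. Of 6098451 mitochondrial reads in all libraries, 95.7% fell on the mRNAs, 4.26% on the rRNAs and 0.00615% on the tRNAs.

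The mRNAs of complex IV, cytochrome c oxidase, which passes electrons to oxygen, gave the most counts. Of all mRNA counts, its 3 mitochondrial genes took 49.7% ± 0.330 in controls and 49.6% ± 1.36 in mice with NDI1 (SD, n = 5 each). The 7 complex I genes took 29.0% ± 0.267 and 29.0% ± 1.19 (SD, n = 5 each). The single complex III gene, mt-Cytb, took 10.6% in both genotypes (SD 0.158 and 0.306), and the ATP synthase genes took 10.7% ± 0.275 and 10.8% ± 0.262 (SD, n = 5 each). The genotypes overlapped in the share of each complex, and in the share of each of the 13 mRNAs.

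**Figure D1:**
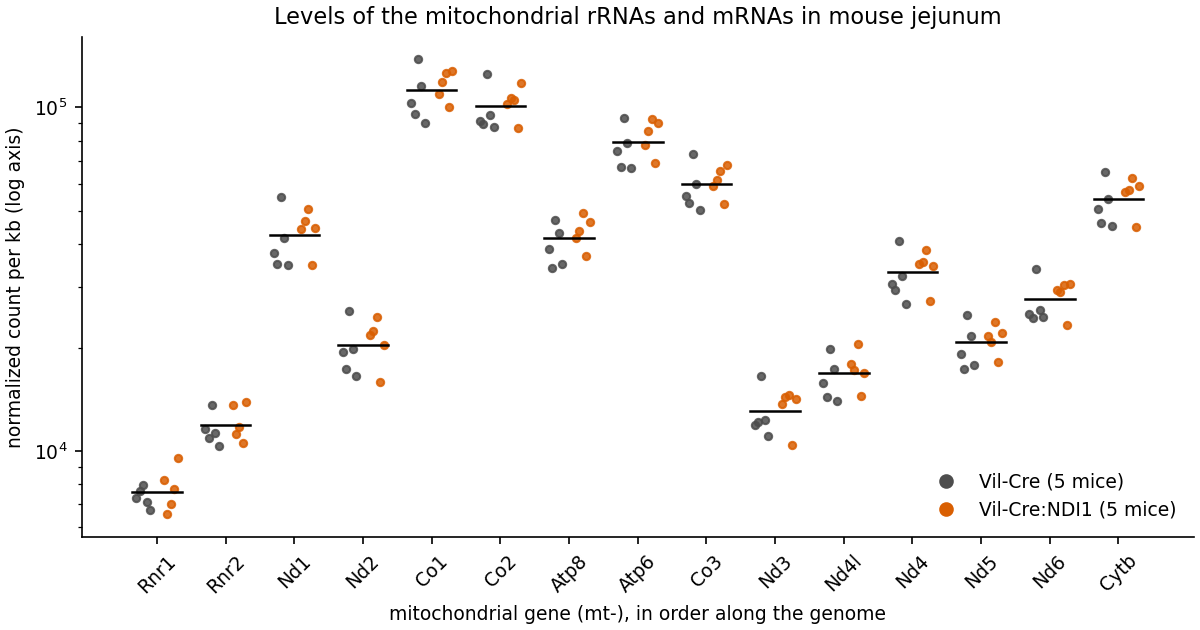
Normalized counts per kb of annotated transcript (log axis) for the 2 rRNAs and 13 mRNAs in the order of their genes along the mitochondrial genome. Each point is a mouse, Vil-Cre in grey and Vil-Cre:NDI1 in orange, and each bar is the mean of 10 mice. The levels run from 7585 for mt-Rnr1 to 112269 for mt-Co1, and in every gene the genotypes overlap.

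Levels were compared between genes per kb of annotated transcript, over the 10 mice (mean ± SD). mt-Co1 (ENSMUSG00000064351, chrM:5328-6872), the catalytic subunit of cytochrome c oxidase that holds its oxygen-binding centre, stood highest at 112269 ± 15402 normalized counts per kb. mt-Co2 (chrM:7013-7696), which accepts electrons from cytochrome c, followed at 100711 ± 13047. The order of this pair was the same in 10 of 10 mice, with a ratio from 1.02 to 1.21. mt-Atp6 (chrM:7927-8607), part of the proton channel of ATP synthase, reached 79505 ± 10365. mt-Co3 (chrM:8607-9390), the third oxidase subunit, reached 59740 ± 7362. mt-Cytb (chrM:14145-15288), the cytochrome b that carries both quinone sites of complex III, reached 54145 ± 7131. Each of these exceeded the next in all 10 mice.

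Below them came the ATP synthase subunit mt-Atp8 and the complex I genes. mt-Nd1 (chrM:2751-3707), which lines part of the quinone channel, was at 42500 ± 7004 normalized counts per kb. mt-Atp8 (chrM:7766-7969), a small membrane subunit, was at 41619 ± 5230. These neighbours did not differ beyond their spread, since mt-Nd1 was the higher in only 5 of 10 mice. mt-Nd4 (chrM:10167-11544), a subunit related to proton antiporters, was at 33096 ± 4667. mt-Nd6 (chrM:13552-14070), the only mRNA encoded on the minus strand, was at 27663 ± 3537. mt-Nd5 (chrM:11742-13565) and mt-Nd2 (chrM:3914-4951), which are antiporter-like as well, lay at 20703 ± 2547 and 20342 ± 3256 and changed places between mice, with mt-Nd5 the higher in 4 of 10. mt-Nd4l (chrM:9877-10173) and mt-Nd3 (chrM:9459-9806), short membrane subunits, closed the order at 16843 ± 2225 and 13121 ± 1861. The other neighbours in this series kept their order in 10 of 10 mice.

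From mt-Nd3 to mt-Co1 the level per kb rose 8.56-fold. Reads of 100 cycles cannot start near the end of a short transcript, and with each length reduced by the read length less 1 base the span was 6.54-fold. This moved mt-Atp8 most, to 80859 per kb and the fourth place above mt-Co3 at 68374, and mt-Nd4l rose above mt-Nd2 and mt-Nd5. The places of mt-Atp8 and mt-Nd4l therefore depend on the length used, while mt-Co1, mt-Co2 and mt-Atp6 stood first and mt-Nd3 last on both scales.

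mt-Atp8 stood at 0.52 ± 0.017 of mt-Atp6 per kb in controls and 0.53 ± 0.012 in mice with NDI1 (SD, n = 5 each), a ratio that varied by 2.72% over the 10 mice while each gene alone varied by 12.57% and 13.04% (coefficient of variation). mt-Nd4l stood at 0.51 ± 0.022 and 0.51 ± 0.023 of mt-Nd4, a ratio that varied by 4.17%. These 2 ratios depend on the length used. With each length reduced by the read length less 1 base, their means over the 10 mice were 0.87 for mt-Atp8/mt-Atp6 and 0.71 for mt-Nd4l/mt-Nd4. The mt-Atp8/mt-Atp6 and mt-Nd4l/mt-Nd4 pairs are known as shared transcripts that carry 2 reading frames. mt-Nd6 exceeded mt-Nd5 on the opposite strand in 10 of 10 mice, at 1.33 ± 0.088 and 1.34 ± 0.061 per kb, a ratio that varied by 5.35%. Of 3 ratios between genes that share no base, that of mt-Nd1 to mt-Nd2 varied by 3.69%, that of mt-Co1 to mt-Co2 by 5.32% and that of mt-Rnr1 to mt-Rnr2 by 8.10%. Whether reads were counted by strand is not given in the sources used here, so reads of mt-Nd6 and of precursor RNA antisense to it cannot be told apart.

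The rRNAs, which form the small (mt-Rnr1) and large (mt-Rnr2) subunits of the mitochondrial ribosome, are known as the most abundant RNAs of the organelle. In these libraries they stood low. mt-Rnr1 (chrM:70-1024) was at 6962, 7304, 7610, 6780 and 6439 normalized counts in Vil-Cre mice 1 to 5 and at 7856, 6265, 6688, 7412 and 9117 in Vil-Cre:NDI1 mice 1 to 5. mt-Rnr2 (chrM:1094-2675) was at 18316, 17253, 21540, 17828 and 16422 in Vil-Cre mice and at 21523, 17696, 18533, 16692 and 22001 in Vil-Cre:NDI1 mice. Vil-Cre:NDI1 5 was the highest for both genes, and the genotypes overlapped. Per kb, mt-Rnr1 at 7585 ± 873 lay below every mRNA in 10 of 10 mice, and mt-Rnr2 at 11871 ± 1335 lay below mt-Nd3, the lowest mRNA, in 9 of 10 (mean ± SD over 10 mice).

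rRNA counts amounted to 0.0453 ± 0.0035 of mRNA counts in controls and to 0.0446 ± 0.0056 in mice with NDI1 (SD, n = 5 each). Over the 10 mice the ratio ran from 0.0382 in Vil-Cre:NDI1 3 to 0.0498 in Vil-Cre:NDI1 1. The genotypes differed by less than the spread within each. How RNA was selected for the libraries is not given in the sources used here, and its part in the low rRNA level was not tested.

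The tRNAs were close to absent from these libraries. The 22 genes are 59 to 75 bases long, all shorter than a read, and together they received 24 to 63 reads per library, 375 in all. No read fell on 8 of them, and 16 never exceeded 3 reads in a library, the limit that a count of 0 allows. Only 2 passed the filter on low values, both on the minus strand, and their sequences are shown 5′ to 3′ on that strand because these are the tRNA genes from which most reads came.
mt-Ts1 (serine tRNA, chrM:6870-6938): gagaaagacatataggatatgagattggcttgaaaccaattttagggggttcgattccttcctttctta
mt-Te (glutamate tRNA, chrM:14071-14139): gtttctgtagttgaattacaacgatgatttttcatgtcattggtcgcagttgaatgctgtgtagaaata

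mt-Ts1 had 15, 14, 32, 15 and 20 reads in Vil-Cre mice 1 to 5 and 17, 10, 21, 17 and 17 in Vil-Cre:NDI1 mice 1 to 5. mt-Te had 6, 6, 26, 13 and 14 reads and 10, 11, 16, 7 and 5 reads in the same order. Vil-Cre 3 had the most reads on both, and the genotypes overlapped. The 8 tRNA genes on the minus strand took 338 of the 375 reads and the 14 on the plus strand took 37. Which strand these reads came from cannot be told apart without the strand setting. The limit of 3 reads covers counting error only, whereas the limma intervals of mt-Ts1 and mt-Te rest on the spread between mice.

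No mitochondrial gene passed the test of a difference between the genotypes. Of the 37 genes, 17 reached 10 normalized counts in 5 or more mice (13 mRNAs, 2 rRNAs and 2 tRNAs) and were tested with limma on log2(normalized count + 1), together with all other such genes. Of the 17, 0 passed an adjusted p of 0.05, where 1 of all 14301 genes tested did (0.00699%), and 0 had an unadjusted p under 0.05, where 606 genes did (4.24%, or 2.13% counting those higher in Vil-Cre:NDI1 mice). DESeq2 and edgeR on the recovered reads each called 0 members as well, against 0.179% and 0.007% of all genes, with 0 at an unadjusted p under 0.05 in either. In Vil-Cre 3 and 4 the value of 1 read lay near 1, and count tests were also run without these mice. Then 8 of the 15 mRNAs and rRNAs in DESeq2 and 2 of 15 in edgeR had an unadjusted p under 0.05, with 0 past the threshold. Median log2 fold changes of the mRNAs were 0.24 and 0.23. Of all genes, 2071 in DESeq2, where 16953 had an adjusted p, and 1296 of 14830 in edgeR had such a p. With all 10 mice it was 1257 in DESeq2, where 17330 had an adjusted p, and 665 of 14290 in edgeR. Without Vil-Cre 3 and 4 the share was larger among the 15 than among all genes in both, though the mRNAs moved together from mouse to mouse. Vil-Cre 3, left out there, had the highest sum of mitochondrial mRNAs (712944 normalized counts). The genotypes overlapped in each of the 17, and they did not overlap in 0.699% of all genes tested. In bulk tissue, the number of cells with mitochondrial transcripts and the level of these transcripts per cell cannot be told apart.

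mt-Co1 was at 158850, 147755, 212889, 178173 and 138984 normalized counts in Vil-Cre mice 1 to 5 and at 168836, 182840, 195033, 154710 and 196485 in Vil-Cre:NDI1 mice 1 to 5. The control mouse Vil-Cre 3 was the highest of the 10 and the control mouse Vil-Cre 5 the lowest. Vil-Cre:NDI1 mice stood 0.11 above controls on the log2 scale, with a standard error of 0.17, a 95% confidence interval from -0.26 to 0.49 and, in limma, an adjusted p of 0.998. The exact permutation p was 0.405 (two-sided).

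The 7 complex I mRNAs gave the same picture. mt-Nd1 was at 36125, 33466, 52382, 39923 and 33289 normalized counts in Vil-Cre mice and at 42494, 44714, 48378, 33183 and 42766 in Vil-Cre:NDI1 mice. mt-Nd2 was at 20099, 17995, 26462, 20517 and 17195 and at 22539, 23225, 25567, 16487 and 21059. For both genes the highest mouse was a control, Vil-Cre 3, and the lowest was Vil-Cre:NDI1 4. The log2 fold changes were 0.13 (standard error 0.16) for mt-Nd1 and 0.09 (standard error 0.15) for mt-Nd2, and limma gave both an adjusted p of 0.998. For mt-Nd3, mt-Nd4, mt-Nd4l, mt-Nd5 and mt-Nd6 they lay between 0.08 and 0.10.

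mt-Nd6, the gene of the minus strand, was at 13002, 12652, 17624, 13310 and 12780 normalized counts in Vil-Cre mice and at 15310, 15114, 15834, 12053 and 15891 in Vil-Cre:NDI1 mice. In 4 of 5 Vil-Cre:NDI1 mice it exceeded 4 of 5 controls, while Vil-Cre 3 and Vil-Cre:NDI1 4 stood outside the others of their genotype. The difference was 0.10 on the log2 scale, with a standard error of 0.12 and an adjusted p of 0.998 in limma.

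Across the 13 mRNAs the median log2 fold change was 0.10, from 0.08 for mt-Nd3 and mt-Co3 to 0.14 for mt-Atp8, while the median over all genes tested was 0.0052. All 13 were above 0, as were 51.2% of all genes, but the 13 moved together from mouse to mouse, so their signs were not independent. Leaving out a single mouse moved the median to 0.05 (Vil-Cre 5), 0.07 (Vil-Cre 2), 0.17 (Vil-Cre:NDI1 4) or 0.19 (Vil-Cre 3), and scaling the libraries to equal totals gave 0.04. The enterocyte markers, with a median of 0.22, lay in the same direction, and their part in this shift was not tested. The smallest unadjusted p was 0.242, for mt-Atp8 (limma, adjusted p = 0.998). The 95% intervals of the 13 reached no lower than -0.26 and no higher than 0.49, which is 0.83- to 1.40-fold, without adjustment for the number of genes. The rRNAs gave log2 fold changes of 0.08 (standard errors 0.11 and 0.11), and the tRNAs gave -0.18 (standard error 0.32) for mt-Ts1 and -0.28 (standard error 0.44) for mt-Te. Without Vil-Cre:NDI1 5 the rRNA values were 0.0043 for mt-Rnr1 and 0.026 for mt-Rnr2. mt-Ts1 turned to 0.0092 without Vil-Cre 3 and to 0.0019 without Vil-Cre:NDI1 2.

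**Figure D2:**
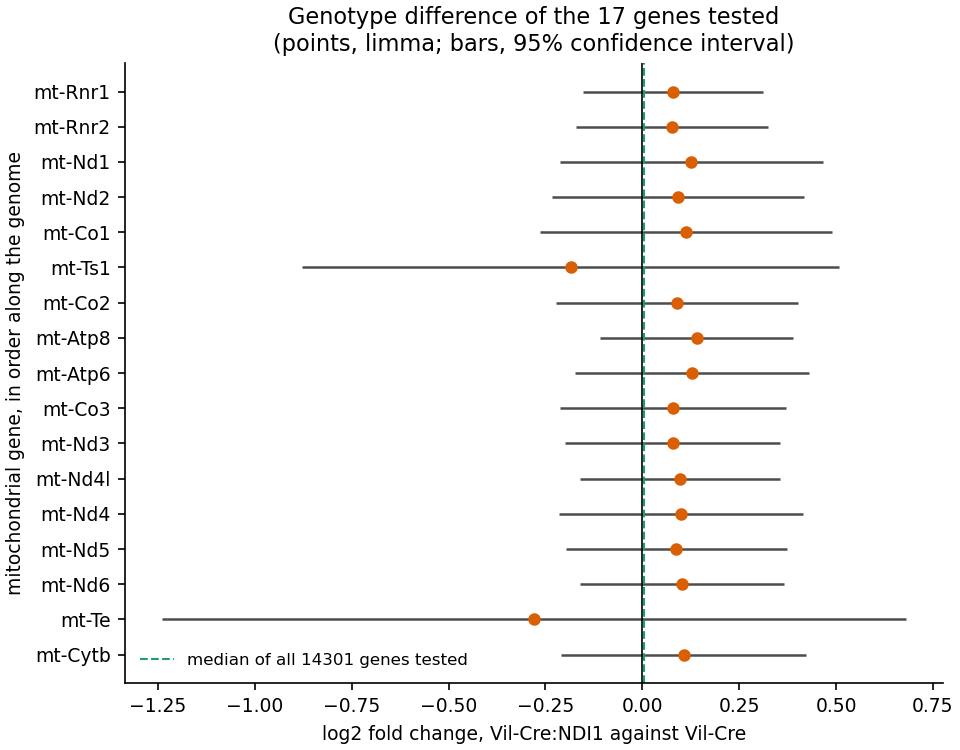
Log2 fold change of Vil-Cre:NDI1 against Vil-Cre (points) with its 95% confidence interval (bars) for the 17 mitochondrial genes tested, in the order of their genes. The solid line marks 0 and the dashed line the median of all 14301 genes tested, 0.0052, and every interval includes 0.

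The difference between mice was larger than that between genotypes and was shared by the whole set of mRNAs. Each mRNA was expressed as its log2 deviation from its own mean over the 10 mice. In Vil-Cre 3 all 13 mRNAs lay above their means, by a median of 0.31. All 13 also lay above in Vil-Cre:NDI1 2, 3 and 5, by medians of 0.09, 0.21 and 0.13. All 13 lay below in Vil-Cre 1, 2 and 5 and in Vil-Cre:NDI1 4, with medians of -0.10, -0.22, -0.24 and -0.21. Only Vil-Cre 4 (6 above, 7 below) and Vil-Cre:NDI1 1 (10 above, 3 below) were mixed. The medians of 2 controls, Vil-Cre 3 and Vil-Cre 5, thus stood further apart than those of any other mice.

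**Figure D3:**
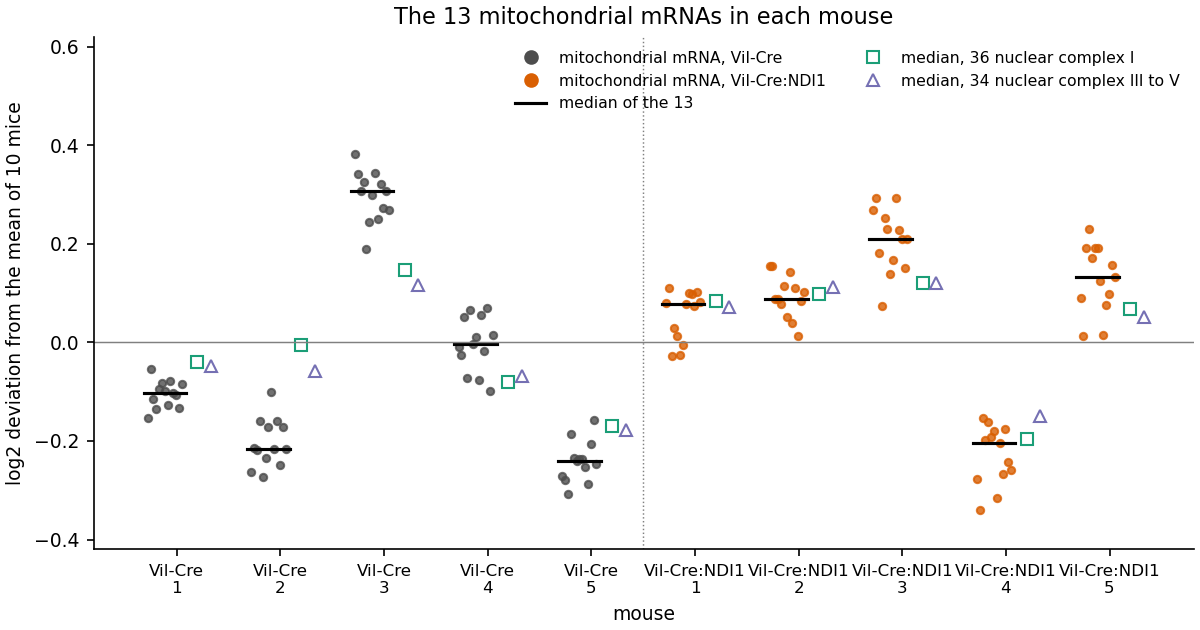
Log2 deviation of each of the 13 mitochondrial mRNAs from its mean over 10 mice, by mouse (points, grey for Vil-Cre and orange for Vil-Cre:NDI1, with their median as a bar), beside the median deviations of 36 nuclear complex I genes (squares) and 34 nuclear genes of complexes III to V (triangles). The 13 mRNAs of a mouse stay together, from a median of -0.24 in Vil-Cre 5 to 0.31 in Vil-Cre 3.

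The standard deviation of a single mRNA over the 10 mice was 0.19 on the log2 scale (median of 13, from 0.18 to 0.24), against 0.29 for the median gene tested and 0.21 for the median of the 346 genes at or above the mean count of mt-Nd3. Once the median deviation of each mouse was subtracted, 0.053 remained (from 0.023 to 0.075). Nuclear genes of complex I went from 0.14 to 0.094 by the same step, and those of complexes III to V from 0.14 to 0.066. Counting error was small beside this, at 0.24% of the count for mt-Co1 and 1.48% for mt-Nd3, whereas the counts varied by 13.7% and 14.2% between mice. The points share a library and its size factor, and no test was run on them.

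The levels of nuclear-encoded partners moved the same way in most mice. Their genes supply the remaining subunits of the complexes. Summed over 36 complex I genes, normalized counts were 34296, 34632, 38636, 34019 and 31642 in Vil-Cre mice and 38094, 38538, 39078, 31302 and 36267 in Vil-Cre:NDI1 mice. The lowest 2 mice, Vil-Cre:NDI1 4 and Vil-Cre 5, were also among the lowest 3 for summed mitochondrial mRNAs, and Vil-Cre 3 and Vil-Cre:NDI1 3 were the highest 2 for both. Counts of all mitochondrial mRNAs per count of nuclear complex I genes were 16.2 ± 1.59 in controls and 16.4 ± 0.912 in mice with NDI1 (SD, n = 5 each), and the highest mouse exceeded the lowest by 1.28-fold, less than the 1.47-fold between the summed mRNAs themselves.

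Some markers of gut position also went with the level of mitochondrial mRNAs, a relation that was looked at after the values had been seen. Fabp6, a bile acid-binding protein, Slc10a2, the bile acid carrier, and Fgf15 are known as genes of the ileum, and lactase (Lct) as a gene of the jejunum. Mice with the 3 lowest sums of mitochondrial mRNAs, Vil-Cre 5 (483789 normalized counts), Vil-Cre 2 (500361) and Vil-Cre:NDI1 4 (501717), had the 3 highest sums of ileum markers, 2101, 916 and 1315. Vil-Cre 1 (536186) followed with 239. The exception was Vil-Cre:NDI1 5, with 645514 counts of mitochondrial mRNAs and 425 of ileum markers. In the other 5 mice the ileum markers summed to 7.84 to 21.9 and the mitochondrial mRNAs to 581904 to 712944.

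Lct told the same from the other side. It was at 6088 in Vil-Cre 5, 13478 in Vil-Cre:NDI1 4, 16925 in Vil-Cre 2, 21050 in Vil-Cre 1 and 23310 in Vil-Cre:NDI1 5, and at 27027 to 31347 normalized counts in the other 5 mice. Enterocyte markers as a whole were lowest in Vil-Cre 5, at 418044, and were at 586784 and 612556 in Vil-Cre 2 and Vil-Cre:NDI1 4. Apoa4 was lowest in the 3 mice highest in ileum markers, with 48578 to 62046 normalized counts. Sis did not follow this order. Its lowest value, 32732, was that of Vil-Cre 5. Vil-Cre 3, the mouse with the most mitochondrial mRNAs, came next with 45484. This was less Sis than Vil-Cre 2 (54844) or Vil-Cre:NDI1 4 (54153) had. Mice with ileum transcripts were found in both genotypes. Without the 3 mice highest in ileum markers, 3 control mice and 4 Vil-Cre:NDI1 mice remained. In these limma called 0 of 16 mitochondrial genes and 0 of all 13732 genes tested, so the result does not set the mitochondrial genes apart. The filter still asked for 10 normalized counts in 5 mice. Genes confined to 1 genotype, NDI1 among them, were therefore left out of this fit and could not be called. The median log2 fold change of the 13 mRNAs was 0.07. The mitochondrial share of counts was then 5.76% in Vil-Cre mice and 5.75% in Vil-Cre:NDI1 mice. The part of tissue position in the spread between mice was not tested.

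**Figure D4:**
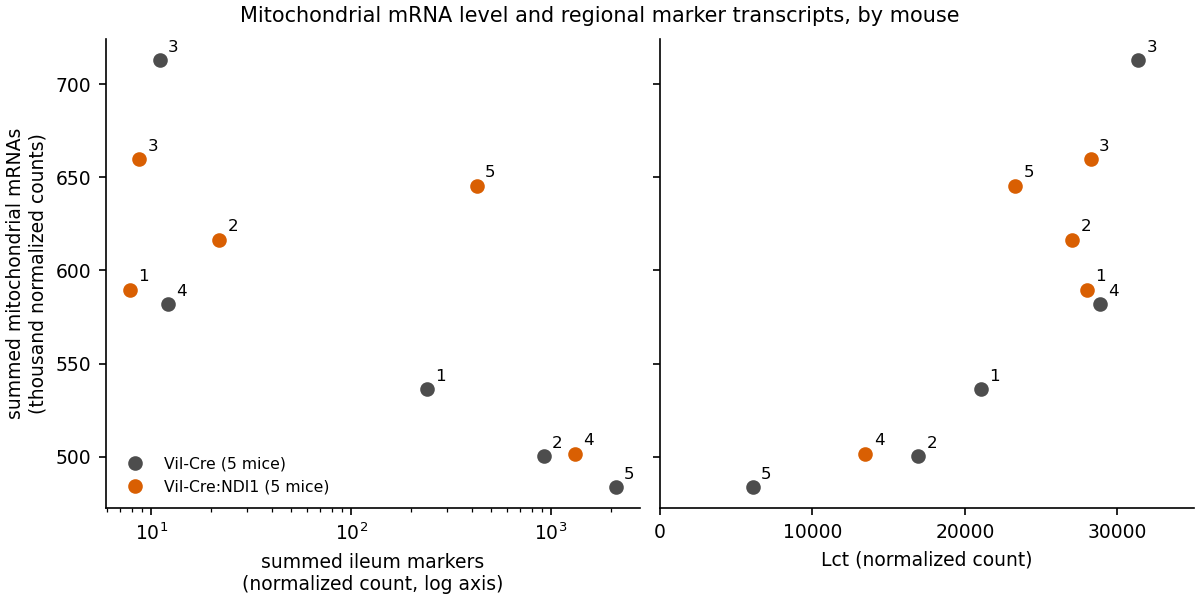
Summed normalized counts of the 13 mitochondrial mRNAs (axis in units of 1e3) against summed ileum markers (left, log axis) and against Lct (right) in each mouse, labelled by its number, grey for Vil-Cre and orange for Vil-Cre:NDI1. The 3 mice with the most ileum transcripts are the 3 lowest in mitochondrial mRNAs and in Lct, and Vil-Cre:NDI1 5 departs from that order.

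The relative make-up of the mRNAs varied less than their sum, and for complexes I and IV it was more spread among Vil-Cre:NDI1 mice than among controls. Complex I genes took 28.9%, 28.9%, 29.4%, 28.7% and 29.1% of mRNA counts in Vil-Cre mice 1 to 5. In Vil-Cre:NDI1 mice 1 to 5 they took 30.2%, 29.2%, 29.9%, 27.99% and 27.5%. Complex IV genes took 48.3%, 49.3%, 48.2%, 50.9% and 51.1% in the same Vil-Cre:NDI1 mice, against 49.3% to 50.01% in controls. Vil-Cre:NDI1 4 and 5 thus stood below the control range for complex I and above it for complex IV, and Vil-Cre:NDI1 1 and 3 stood the other way. The difference in spread was not tested.

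Among nuclear genes that complete these complexes or that maintain and read mitochondrial DNA, none passed the threshold with limma, DESeq2 or edgeR. Among 36 nuclear genes of complex I, 0 passed the threshold with limma and 2 had an unadjusted p under 0.05, against 4.24% of all genes tested. The median log2 fold change was 0.06 and 31 of 36 were above 0. The smallest p-values were those of the accessory subunits Ndufa10 (1114 ± 63.9 and 1282 ± 88.9 normalized counts, SD, n = 5 each, log2 fold change 0.20, adjusted p = 0.998 with limma) and Ndufa9 (1292 ± 89.6 and 1459 ± 99.8, log2 fold change 0.18, adjusted p = 0.998 with limma). Of 34 nuclear genes of complexes III to V, 0 passed and 32 were above 0, with a median of 0.08. Among all genes tested 51.2% were above 0. The genes of both lists shared deviations from mouse to mouse, so their signs were not independent. Cox7a2 and Cox7b, small subunits of cytochrome c oxidase, had the smallest p in that list, with log2 fold changes of 0.15 and 0.22.

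Transcription of mitochondrial DNA was represented by 9 genes, of which 0 passed the threshold. Tfam, which packages mitochondrial DNA and opens its promoters, was at 389.9 ± 32.01 normalized counts in controls and 355 ± 55.3 in mice with NDI1 (SD, n = 5 each). This was -0.14 on the log2 scale, with a standard error of 0.12 and an adjusted p of 0.998 in limma. Mterf1b, a relative of the transcription terminator, was low, at 15.2 ± 6.27 and 11.6 ± 8.15. Of 7 replication genes 0 passed, and the topoisomerase Top1mt and the helicase Twnk came first by p, with log2 fold changes of 0.20 and 0.15.

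Processing and decay of the precursor were measured through 10 and 9 genes, of which 0 passed in either list. Prorp, the nuclease of mitochondrial RNase P that cuts tRNAs free at their 5′ ends, was at 98.5 ± 16.5 and 78.8 ± 21.01 normalized counts (SD, n = 5 each), a difference of -0.35 on the log2 scale with a standard error of 0.21 and an adjusted p of 0.998 in limma. Trnt1, which adds the CCA end to tRNAs, gave -0.23. Lrpprc, which stabilizes mitochondrial mRNAs, was at 571 ± 102 and 655 ± 116, 0.20 higher on the log2 scale in mice with NDI1, with a standard error of 0.14 and an adjusted p of 0.998 in limma. Pde12, which shortens poly(A) tails, gave 0.08. Among 8 upstream regulators 0 passed, and Esrra and Pprc1, regulators of mitochondrial genes, came first with 0.12 and 0.45.

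Reads from the mitochondrial genome can also be assigned to its copies in the nuclear genome, and 17 annotated nuclear genes matched a mitochondrial gene at 90% identity or more over at least 100 bases (BLAST between GENCODE transcripts). Of these, 16 were in the table, and all 16 had a read. The 7 copies on chromosome 1 lie side by side between 24611535 and 24616197 on the minus strand of GRCm38, and they are 99.7% to 100% identical to mt-Co1, mt-Co2, mt-Atp6, mt-Co3, mt-Nd3, mt-Nd4l and mt-Nd4, the same order as in the mitochondrial genome. The most covered copy, Gm29216 (chr1:24615706-24616197, an unprocessed pseudogene), matches the last part of mt-Co1 over 483 bases with a single substitution, A1066T, counted from the first base of the mt-Co1 transcript. The start of that match is shown for both genes, with the differing base in capitals, because no other base of the match separates them.
mt-Co1: ggaAttgttttatccaactcatcc
Gm29216: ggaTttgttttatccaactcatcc

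Assignment to these copies was erratic from library to library. Gm29216 had 1133, 2655, 2963, 104 and 978 reads in Vil-Cre mice 1 to 5 and 234, 2003, 0, 0 and 2363 in Vil-Cre:NDI1 mice 1 to 5. Gm28437, identical to mt-Co3 over 783 bases, had 496, 0, 327, 618 and 0 reads and 485, 623, 1041, 273 and 99 reads in the same order. The copies thus ran from 0 to 2963 and from 0 to 1041 reads, while mt-Co1 and mt-Co3 themselves stayed between 138984 and 212889 and between 39477 and 57256 normalized counts. The limma log2 fold changes were -3.92 (standard error 2.24) for Gm29216 and 3.29 (standard error 1.87) for Gm28437, with an adjusted p of 0.998 each, and both 95% intervals included 0.

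**Figure D5:**
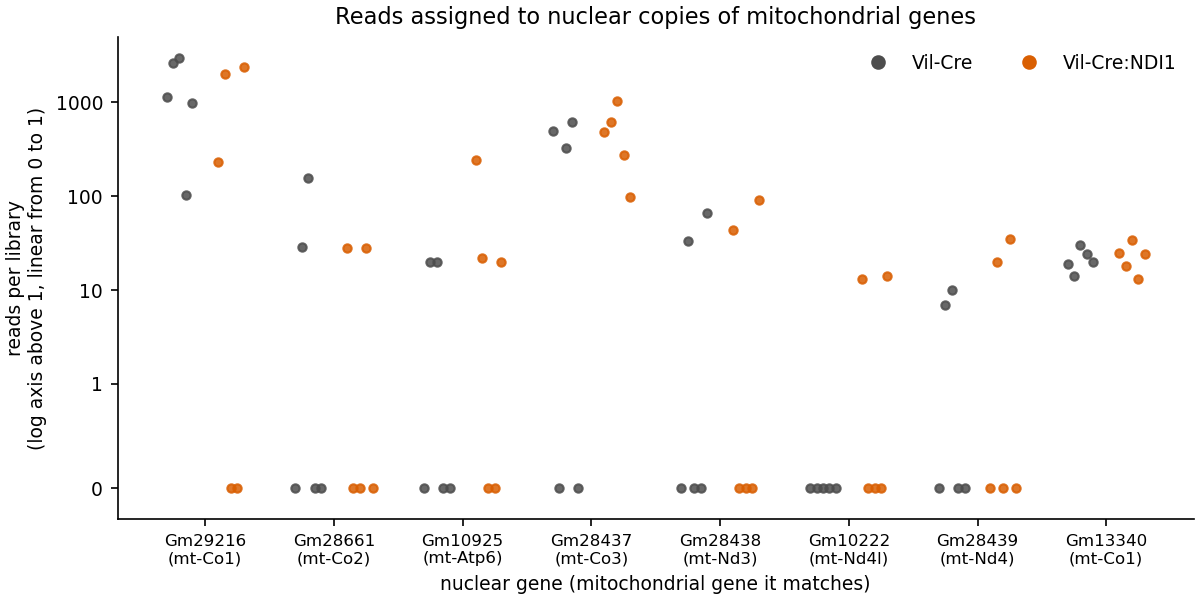
Reads per library assigned to 7 nuclear copies at 99% identity or more and to Gm13340, with the mitochondrial gene each matches in brackets (log axis above 1, linear from 0 to 1). Each point is a mouse, Vil-Cre in grey and Vil-Cre:NDI1 in orange. Each of the 7 near-identical copies has 0 reads in at least 1 mouse, whereas Gm13340 keeps to 13 to 34 reads.

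Less similar copies received few reads. The 9 in the table under 99% identity had at most 34 reads in a library, and the highest of them, Gm13340 on chromosome 2, 97.6% identical to mt-Co1 over 1545 bases, had 19, 14, 30, 24 and 20 reads in Vil-Cre mice and 25, 18, 34, 13 and 24 in Vil-Cre:NDI1 mice. All 16 copies together held 0.0714% to 0.606% of the reads of the mitochondrial mRNAs. When each copy's count was added to the gene it matched best, no mRNA rose by more than 2.14% in any mouse, that of mt-Nd3, and the log2 fold change of mt-Co1 went from 0.11 to 0.11 and that of mt-Co3 from 0.08 to 0.08. Reads split between a gene and its near-identical copy are uncertain, and at this size they did not change the comparison.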

How the data were processed

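The authors' pipeline trimmed single-end reads (trimGalore!), mapped them with STAR against a GRCm38 genome that included NDI1, and quantified genes by Salmon. The annotation release, strand setting and RNA selection are not given in the sources used here. The deposited values are a signal, read counts per gene divided by a DESeq2 size factor. In each library 100% of non-zero values were whole multiples (tolerance 0.02) of the smallest, taken as 1 read. For Vil-Cre 3 and 4 this step lay near 1 (1.0018 and 1.0111), and count tests were also repeated without them. The members and gene lists were chosen with earlier results of these data known.

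Genotypes were compared with limma 3.58.1 in R 4.3.3 (eBayes, variance trend, pseudocount 1, Benjamini-Hochberg over 14301 genes). Fold changes on this scale understate changes of low genes. Exact permutation tests used all 252 assignments of mice, with 0.00794 as the smallest p. DESeq2 1.42.0 and edgeR 4.0.16 were alternatives. Every fit was tested on simulated data. Nuclear copies were found with BLAST 2.17.0+. Of the nuclear gene lists for the complexes and for mitochondrial DNA and RNA, the 2 genes of smallest p per list are named. NDI1, the nuclear copies, the ileum markers, Lct, Sis and Apoa4 are named outside this rule. The relation of the ileum markers, Lct, Sis and Apoa4 to the mRNAs was looked at after the values had been seen. Fastkd4, listed for RNA processing, was not matched to a row. Shared replicate numbers did not pair the mice (correlations of deviations from -0.12 to 0.14). Depth limits are counting error only.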

Additional observations from a re-analysis of the deposited data

Results flagged for a closer look

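Of 76 sets of 5 mice looked at, 8 held a mouse far from the other 4, where chance gives about 1 in 20. Of the mitochondrial genes, mt-Co2 (85693 normalized counts in Vil-Cre 3, 60155 to 65090 in the other controls), mt-Nd3 (5743 in Vil-Cre 3, 3843 to 4293 in the others) and mt-Nd6 (17624 in Vil-Cre 3, 12652 to 13310 in the others) stood apart upwards. In the other genotype, mt-Nd3 (3634 in Vil-Cre:NDI1 4, 4775 to 5081 in the others) and mt-Nd6 (12053 in Vil-Cre:NDI1 4, 15114 to 15891 in the others) stood apart downwards. Summed tRNA reads were 53 in Vil-Cre:NDI1 3 and 31 to 34 in the others of its genotype. Gm28661, the nuclear copy of mt-Co2, had 158 reads in Vil-Cre 3 and 0 to 29 in the other controls, and Gm10925, the copy of mt-Atp6, had 241 in Vil-Cre:NDI1 1 and 0 to 22 in the others. Since the 13 mRNAs moved together in each mouse, the sets are not independent.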

How the results depend on the processing

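Under every alternative run, 0 mitochondrial genes passed the threshold. The 15 mRNAs and rRNAs kept a log2 fold change above 0 under each alternative. With a mouse left out, the median of the 13 mRNAs ran from 0.05 (Vil-Cre 5) to 0.19 (Vil-Cre 3). Rescaling to equal totals gave 0.04, with the median of all genes at -0.06. Without Vil-Cre 3 and Vil-Cre 4, an alternative chosen after seeing the data, DESeq2 gave a median of 0.24 and edgeR 0.23, and 8 and 2 of the 15 then had an unadjusted p under 0.05 (lowest adjusted p 0.213 and 0.532). The shares over all genes, given above, were smaller. The tRNAs turned direction. In the same fits mt-Ts1 went to 0.017 and 0.014 and mt-Te to 0.17 and 0.16, and with a mouse left out mt-Ts1 ran from -0.28 to 0.0092. Counting mt-Rnr2 alone lowered the rRNA to mRNA ratio to 0.0327 and 0.0321, and the read-length correction lowered the span of mRNA levels per kb to 6.54-fold. With the replicate number as a block, the median stayed at 0.10 and 0 members were called, and the numbers did not pair the mice. Counts of all genes called were 1 with limma, 31 with DESeq2 (269 without Vil-Cre 3 and 4) and 1 with edgeR. With a mouse left out, the mitochondrial share ran from 5.09% to 5.56% in controls and from 5.38% to 5.75% in mice with NDI1, the rRNA ratio from 0.0444 to 0.0464 and from 0.0433 to 0.0462, and the span from 8.47- to 8.63-fold. The 95% interval of an mRNA's log2 fold change had a median half-width of 0.30, and depth limits the tRNAs.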
